A study of Oryza sativa with 19 samples.

Results

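Callus is a mass of dividing, unorganised plant cells kept on a medium with plant hormone. In rice it is commonly raised from the scutellum of the seed, and plants can be regenerated from it, so it serves as the starting material for transformation. Auxin in the medium keeps the cells dividing and holds them back from forming shoots or roots. The loci described here are those mapped by full-length cDNA clones whose messenger RNA signal was far higher in callus than in each other tissue of the variety Nipponbare (NB, a japonica rice).

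The members are 126 probes of 77 cDNA loci, out of 33360 probes of 20404 loci. With another background correction and normalization (normexp, loess and Aquantile) 77 probes met the rule, 72 of them among the 126. They were chosen by their measured values, so the callus differences below are a description and carry no test. The level of a probe is log2 of the scaled signal, with each channel of an array brought to a median of 1000 and capped at 100000 (16.61 on the log2 scale). A probe was kept when its mean level in NB callus was 4 or more above the mean in each of NB shoot, NB root and NB panicle on the same array design, and when the scanner software marked both channels as well above background on every NB callus array. Values came from 2 array designs with different probes. S1 gave 44 members of 35 loci and S2 gave 82 members of 51 loci, with 9 loci on both. The same rule applied to other tissues kept 221 probes of 171 loci for NB shoot, 220 of 153 for NB root and 190 of 132 for NB panicle.

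Each array held RNA of a single sample in both its Cy3 and its Cy5 channel. NB callus was raised from scutellum, according to the study's methods, on solid medium with a synthetic auxin. It was kept for 28 days under continuous light in a growth chamber, per the labels. NB shoot came from soil-grown greenhouse seedlings, NB root from seedlings in hydroponic culture in a growth chamber and NB panicle from field-grown plants at the late-boot stage. IR64 shoot, from an indica variety, was grown like NB shoot. Growth length in the labels is 10 days for shoots and roots, with none for panicle. The methods give shoots an older age. RNA was pooled over plants. Every group had 2 replicates on each design, except NB panicle with 1 array on S2. The labels do not say whether replicates are separate RNA extracts, so an SD or a p-value may cover repeated hybridization only. By the methods, shoot RNA was prepared with Trizol and RNA of the other tissues with an RNeasy kit, while the labels differ for NB shoot. Tissue, growth environment and, by the methods, the reagent used for shoots cannot be told apart here. Nor can more RNA per cell and more cells of a type.

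The arrays differed in brightness. The median background-subtracted signal of an array ran from 36.79 to 174.2, and replicate 2 was the dimmer callus array on both designs (96.68 against 162.1 for replicate 1 on S1, and 43.33 against 174.2 on S2). All replicate 2 arrays were scanned in 1 batch, and the replicate 1 arrays of NB callus in another than those of the other NB tissues. The files give loci as numbers along a chromosome and strand, so R09-00298F is the locus numbered 298 on the forward strand of chromosome 9. None of the array identifiers matched the table of rice gene names, so genes are given by these names, without a function, and tissue marker genes could not be checked.

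The members were bright in callus. Their median level in NB callus was 15.13 (11.33 to 16.61), against 8.64 in NB shoot (6.41 to 12.34), 8.40 in NB root (5.96 to 12.32) and 8.87 in NB panicle (5.70 to 12.37). The median difference was 6.07 over NB shoot, 6.02 over NB root and 5.86 over NB panicle. From the nearest tissue the members stood 5.31 apart at the median, up to 9.80, and under normexp, loess and Aquantile the median was 4.23 and callus was above the nearest tissue for all 126. That nearest difference was 8 or more for 3 members, at least 6 for 28 and under 5 for 51. The 2 callus arrays lay above every array of the other NB tissues for 126 of 126 members, with a gap of at least 2.96. This holds for 15% of all cDNA probes that were well above background in callus, and the rule used the same arrays.

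**Figure D1:**
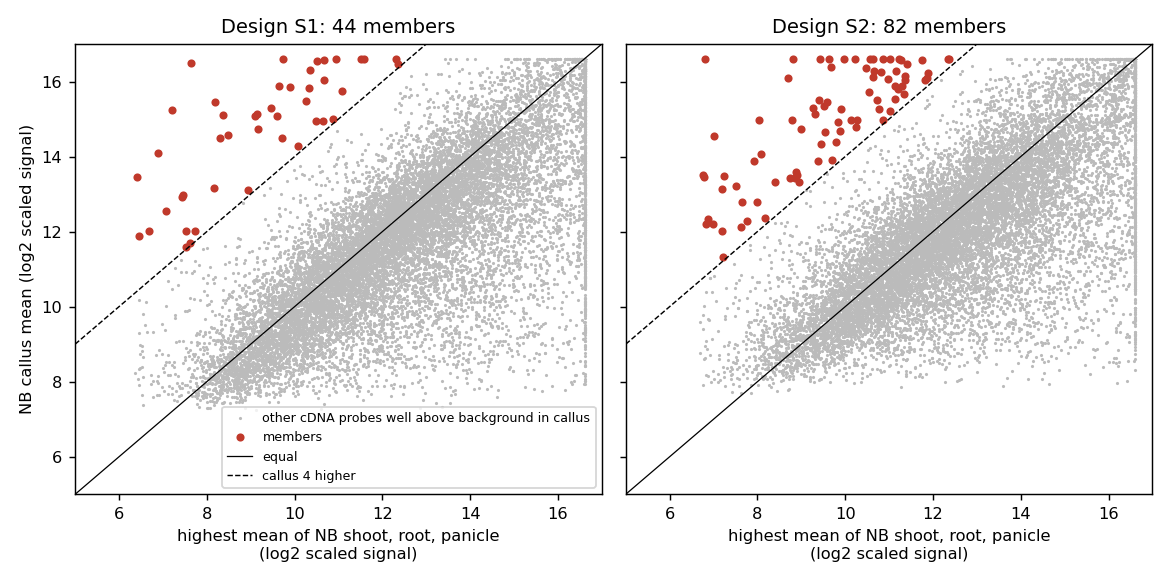
Mean level in NB callus against the highest mean among NB shoot, root and panicle, both as log2 scaled signal, for cDNA probes well above background on every callus array. Red points are the 44 members on S1 and the 82 on S2, above the dashed line where callus is 4 higher, and the line of points along the upper edge is the cap at 16.61.

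The largest difference was at R08-00515F on chromosome 8. Its probe R08-00515F_C gave 16.61 on both callus arrays, against 6.31 and 7.30 in NB shoot, 5.80 and 7.38 in NB root and 5.96 on the NB panicle array. It was at the cap and saturated in callus and not well above background on any other array, so that the signal in callus was at least 375-fold higher than in NB shoot, 502-fold than in NB root and 763-fold than in NB panicle. These bounds set the callus mean against the lowest signal that counted as well above background on each dim array, or the probe's own signal where that was higher, and they hold for this scaling only. The second locus was R09-00298F on chromosome 9. Its probe gave 16.38 and 16.61 in callus, against 7.33 and 7.95 in NB shoot, 7.56 and 7.39 in NB root, and 7.89 and 7.36 in NB panicle. Only the panicle arrays gave a signal well above background outside callus. The callus signal was at least 438-fold higher than in NB shoot and 519-fold higher than in NB root. Under normexp, loess and Aquantile the difference of R09-00298F from the nearest tissue was 7.08 in place of 8.86, which corresponds to a smaller fold. The locus right after it, R09-00299F, is a member as well and is described with the neighbours.

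Other leading loci shared this shape, a high level in callus and levels below 9 elsewhere. E5_08353 of R10-00108R gave 14.89 and 15.59 in callus, against 6.78 and 7.47 in NB shoot, 7.19 and 7.23 in NB root and 6.77 and 6.31 in NB panicle. It was not well above background in the other NB tissues, and callus was at least 184-fold higher than NB shoot. Under normexp, loess and Aquantile its difference from the nearest tissue was 5.65 in place of 8.03, which corresponds to a smaller fold than that stated. R03-00043R_C gave 15.58 and 16.61 in callus, against 8.58 and 8.82 in NB shoot, 8.23 and 7.38 in NB root and 8.26 in NB panicle. R03-01199F_C gave 14.95 and 15.97 in callus, against 7.39 and 7.12 in NB shoot, 7.42 and 6.63 in NB root and 8.28 and 8.09 in NB panicle. In each of these probes the callus arrays lay far closer to each other than to any array of the other tissues.

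Some leading members were dimmer in callus. R02-01127F_C gave 13.00 and 13.90 in callus, against 6.02 and 6.80 in NB shoot, 5.99 and 5.92 in NB root and 6.29 and 6.20 in NB panicle, at least 52.9-fold over NB shoot. R02-00930R_C gave 12.98 and 14.03 in callus, against 6.32 and 7.21 in NB shoot, 5.77 and 7.07 in NB root and 5.79 in NB panicle, at least 43.5-fold over NB shoot. Neither was well above background in any other NB tissue. Under normexp, loess and Aquantile the difference from the nearest tissue was 4.09 for R02-01127F_C and 3.78 for R02-00930R_C, in place of 7.04 and 6.74, and both correspond to smaller folds than those stated. Neighbouring ranks held brighter probes. R01-00422F_C gave 14.58 and 15.63 in callus, against 7.40 and 8.03 in NB shoot, 8.21 and 7.83 in NB root and 8.43 and 8.30 in NB panicle. R06-00612R_C, with 15.17 and 16.61 in callus, differed from these in its root signal of 9.58 and 9.70, well apart from 7.70 and 7.92 in NB shoot and 7.84 and 7.63 in NB panicle. Among the 12 leading loci, R10-00108R, R10-00473F, R03-00159F and R09-00299F have more than 1 probe and are described further below.

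**Figure D2:**
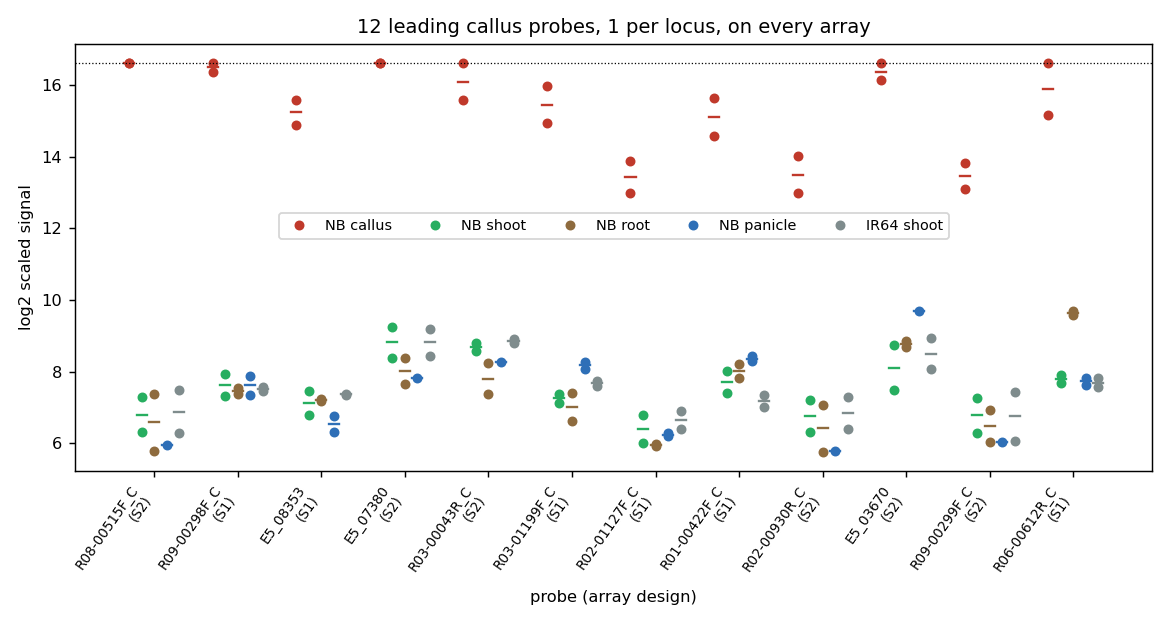
Level of the leading probe of each of the 12 leading loci on every array, as log2 scaled signal, with NB callus at the left of each group of points, short lines for means and a dotted line at the cap of 16.61. Callus arrays lie at 12.98 or above and all other arrays below 10.

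The lower end of the list was close to the threshold. Just inside it were E5_06102 of R04-00723F with a difference of 4.06, R03-00541R_C with 4.07 and R10-00255F_C with 4.10. Just outside were R03-00743R_C with 3.99, R03-00310R_C with 3.95 and R12-00412F_C with 3.93. Between 3.5 and 4 lay 47 probes and between 4 and 4.5 lay 25, so no break in the differences marks the group.

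Members ranged from probes that were dark outside callus to probes that were lit in every tissue. Of the 126, 20 members of 15 loci never rose well above background outside callus in NB, and 19 of these were also dark on both IR64 shoot arrays. Their median callus level was 12.68. At the other end, 43 members of 30 loci were well above background on every array of every NB tissue, with a median callus level of 16.10, and 63 were in between. The median distance to the nearest tissue was 5.47 in the dark members and 5.13 in those lit everywhere. Where a probe is at the cap in callus and well above background elsewhere, its difference is a lower limit. Where it is dark elsewhere, its difference is taken from a background level and is no such limit. In callus 17 members of 5 loci were at the cap on both arrays and 21 on 1 array. Without the cap the differences reached 12.48, at R08-00515F_C, against 9.80 with it.

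The nearest tissue was NB shoot for 56 members, NB panicle for 42 and NB root for 28. By locus, taking the probe with the largest difference, it was NB shoot for 33, NB root for 24 and NB panicle for 20, so the order of panicle and root depends on loci with several probes. Members dark in a tissue enter these counts with a background level, and 49 were dark on every NB shoot array, 36 on every NB root array and 28 on every NB panicle array. For 89 members it stood less than 1 above the next tissue, and for 63 all 3 other NB tissues lay within 1 unit, so that most members had no clear second tissue. In 19 probes the second tissue stood 2 or more above the one after it, with NB panicle in 10 probes of 5 loci, NB root in 5 probes of 5 loci and NB shoot in 4 probes of 2 loci. The clearest root signal was at R06-00583R_C, with 16.58 and 16.61 in callus and 11.99 and 12.64 in NB root, against 6.60 and 6.96 in NB shoot and 7.38 and 6.76 in NB panicle. It was dark in shoot and panicle, and callus was at least 469-fold higher than NB shoot and 661-fold higher than NB panicle. R02-01158R_C gave 13.79 and 14.80 in callus and 9.83 and 10.33 in NB root, against 6.88 and 7.29 in NB shoot and 6.76 and 6.68 in NB panicle. R04-00060R_C, R07-00421R_C and R09-00169R_C also had NB root second.

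NB panicle came second at R03-00116F, R05-00715F, R04-00657F, R05-00542F and R10-00255F. R10-00255F_C gave 16.31 and 16.61 in callus and 12.18 and 12.53 in NB panicle, against 10.10 and 10.52 in NB root and 8.50 and 9.43 in NB shoot. R03-00116F_C gave 14.52 and 15.48 in callus and 11.01 and 10.77 in NB panicle, while NB shoot (6.08 and 7.04) and NB root (6.90 and 6.57) were not well above background. NB shoot came second by such a margin at R02-01025R_C, with 15.26 and 16.22 in callus and 10.78 and 11.36 in NB shoot, against 8.28 and 8.27 in NB root and 8.59 and 8.22 in NB panicle. At the probes of this paragraph with levels given, the gaps below the second tissue exceeded the spread between the replicates of each tissue. At R04-00657F and R05-00542F the margin was seen only on S2. NB panicle had no replicate there, so no panicle spread could be set against the gap. On S1 the probe E5_11255 of R04-00657F had NB panicle only 0.30 above the next tissue. All these gaps were picked out by their size.

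Several loci were measured with many probes, which shows how far the pattern holds along a locus. A locus has 1 probe that the files call common (named with C) and may have further probes named E5. Each carries a gene name that ends in a number, which the files do not explain and which is used here only to order the probes. Neighbouring numbers are as little as 5 apart, so such probes may overlap in sequence and are no independent replicates. Of the 77 loci, 19 had E5 probes (24.7%, against 11.1% of all loci). A locus with more probes had more chances to meet the rule, so these shares are not on equal terms. These 19 loci had 130 common and E5 probes, of which 68 were members. Levels of different probes are not on a common scale, so what is compared along a locus is the difference between tissues within each probe. In 4 loci all of 2 or more probes were members, namely R10-00473F, R09-00107F, R09-00299F and R03-00155R.

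R10-00473F was a member at each of its 10 probes, 2 on S1 and 8 on S2. Callus was at or near the cap in all of them (16.54 to 16.61), so the differences are limited by the cap. They ran from 5.39 to 7.79. NB shoot was the nearest tissue for every probe, and from number 330 on NB root was the lowest. The probe numbered 325 on S2, E5_07380, gave 16.61 and 16.61 in callus, against 8.38 and 9.26 in NB shoot, 7.66 and 8.37 in NB root and 7.83 in NB panicle. The probe numbered 368 on S1 had means of 16.54 in callus, 10.51 in NB shoot, 6.27 in NB root and 7.87 in NB panicle. R09-00107F (5.13 and 5.38) and R03-00155R (4.37 and 4.67) had closer differences over their 2 probes each.

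R10-00108R was a member at 9 of 10 probes, and its difference from the nearest tissue changed along them. It was 5.41 at number 1, 7.20 at number 41 and 7.53 at number 66. At numbers 1, 21, 41 and 66 no probe was well above background in the other NB tissues. At number 126 callus had a mean of 15.28, against 11.53 in NB shoot, 10.82 in NB root and 11.83 in NB panicle, so that this probe, with a difference of 3.46, missed the threshold. At number 200 the other tissues were dark again and the difference was 8.03. None of the callus means of this locus reached the cap.

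In other loci too the difference varied from probe to probe. In R04-00494R it ran from 0.84 to 5.22, and of 10 probes only those numbered 336 and 356 were members, both dark in the other NB tissues. In R01-00552R it ran from 1.16 to 4.82 with NB root as the nearest tissue at every probe, and 4 of 10 probes were members. The smallest differences of R01-00552R were at probes with callus replicate 2 at the cap. In R03-00116F the probes numbered 411 and 431 were at the cap on both callus arrays and differed from NB panicle by 0.94 and 1.33, while the 5 probes from 451 to 549 were members with differences of 4.12 to 4.60. The cap makes such differences lower limits. In 15 of the 19 loci some probes were members and others were not.

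**Figure D3:**
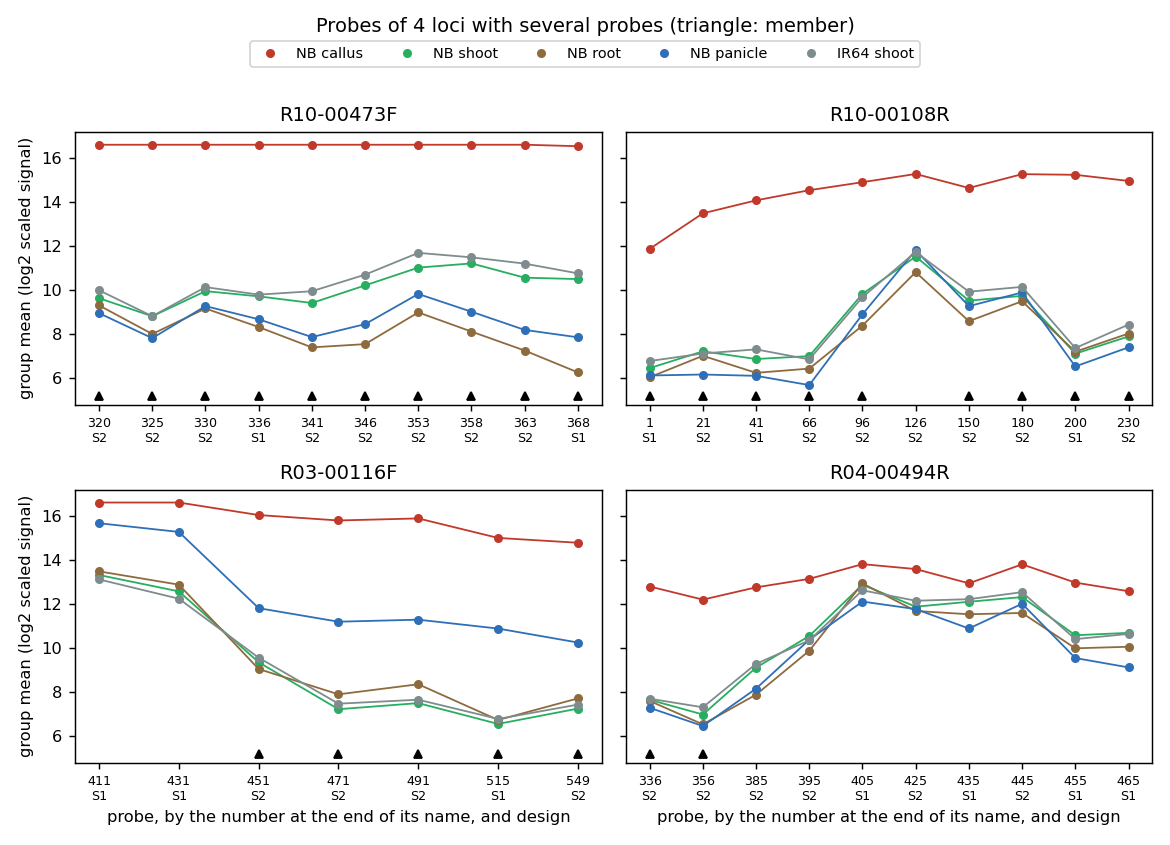
Group means, as log2 scaled signal, of each common or E5 probe of R10-00473F, R10-00108R, R03-00116F and R04-00494R, ordered by the number in the probe's name, which is not a genome coordinate. Triangles mark members, and the gap between callus and the nearest tissue is widest for R10-00108R at number 200 (8.03) and narrowest at number 126 (3.46), with callus of R10-00473F at or near the cap of 16.61.

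R03-00159F, R05-00715F and R05-00346R were also members at most probes. In R03-00159F 8 of 10 probes were members, with callus at 16.30 or above in each of them, and the leading probe E5_03670 gave 16.15 and 16.61 in callus, against 8.74 and 7.49 in NB shoot, 8.86 and 8.69 in NB root and 9.68 in NB panicle. In R05-00715F 8 of 10 probes, numbered 383 to 458, had callus means of 14.07 to 15.87, and the other 2, numbered 21 and 31, had only 9.67 and 9.31. In R05-00346R 5 of 7 were members, with the largest difference (6.12) at number 241, where callus gave 15.33 and 15.70 against 9.28 and 9.50 in NB shoot. The 62 common and E5 probes of member loci that were not members had a median difference of 1.86, against -0.50 over all cDNA probes tested, and ran from -1.78 to 3.81.

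In a few loci 1 probe stood against the rest. R08-00287R had 9 probes, and only its common probe was a member, with a mean of 13.90 in callus and 9.71 in NB shoot. Its E5 probes differed from the nearest tissue by -1.78 to 2.29, and those numbered 140, 180 and 280 were bright in every tissue and highest in the shoots. In R07-00301R the probe numbered 541 differed by 4.30 while those numbered 117 and 137 gave 0.49 and -0.33. In R10-00261R the common probe differed by 5.83, while its E5 probes gave -0.91 (dark in all groups), -0.53 and 0.00 (at the cap in all groups). In R09-00327F the common probe differed by 4.99, while R09-00327F_S1, the single specific probe of a member locus (a class outside the rule, named with S), had a mean of 11.22 in callus, against 11.85 in NB shoot, 11.39 in NB root and 12.56 in NB panicle, and it was not called higher in callus by the limma fit described next (1.13% of specific probes were). For these loci a difference of 4 or more was seen at 1 probe only. Probes that are dark or at the cap in all groups cannot show a difference. Which probes report the locus, and whether other transcripts bind to them, was not tested.

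Loci chosen on 1 design were followed on the arrays of the other. Those arrays did not enter that choice, but they chose members of their own. A locus chosen on 1 design often has probes on the other, which were fitted there with limma across all probes of the design. A probe was called when callus was higher than each of NB shoot, NB root and NB panicle at adjusted p below 0.05. Of 35 loci chosen on S1, 11 had 44 probes on S2, and 36 of these were called (81.8%) at 9 loci, against 1.2% of all common and E5 probes tested on S2. Of 51 loci chosen on S2, 15 had 41 probes on S1, and 30 were called (73.2%) at 14 loci, against 4.89% on S1. The median difference from the nearest tissue was 5.12 on S2 and 3.12 on S1. Counting both directions, 66 of 85 probes were called, 14 of 17 loci had at least 1 call, and 81 of 85 probes had callus above the nearest tissue. With only the groups compared in the fit 26 of 85 were called (30.6%, against 0.445% of all probes). Of the 85 probes, 52 reached 4 and are members on their own design, and 1 is the specific probe of R09-00327F. The choice in each direction used only the arrays of the first design, but probes of a locus may share a target and both designs may share RNA, so the counts are not of independent tests.

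**Figure D4:**
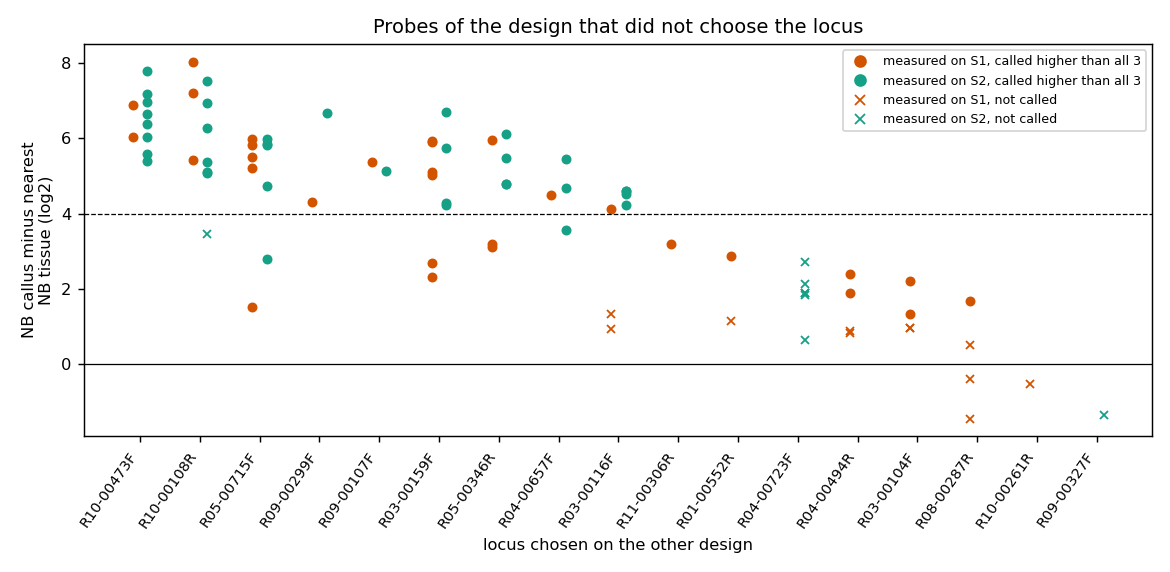
NB callus minus the nearest NB tissue, in log2 units, for 85 probes of 17 loci measured on the design that did not choose the locus. Filled points were called higher in callus than in all 3 other NB tissues and crosses were not, and most points of the first 9 loci lie above the dashed line at 4.

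These counts rest mainly on the 9 loci that were members on both designs. The other 8 loci had 23 probes on the design that did not choose them, of which 7 were called at 5 loci, with a median difference of 1.35. Among these 8 no probe reached 4 on that design, as they would otherwise have been members on both. R11-00306R was called on S1, where its common probe had 16.61 in callus and 13.42 in NB panicle. R04-00723F, chosen by a single probe on S1, had 0 calls among 6 E5 probes on S2, with differences of 0.66 to 2.71.

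Member loci were spread over all 12 chromosomes, with 41 on the forward and 36 on the reverse strand. By share of the loci measured they were most frequent on chromosome 10 (8 of 1060, 0.755%) and chromosome 8 (9 of 1382, 0.651%) and least frequent on chromosome 12 (1 of 1114, 0.0898%). Chromosome 3 held the most, 14 of 2687. Pairs with consecutive numbers on 1 strand were R08-00515F with R08-00516F, R09-00298F with R09-00299F and R10-00261R with R10-00262R. Of 153 loci with probes next to a member on its strand, 6 (3.92%) were members themselves, against 0.377% of all loci.

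The pair on chromosome 8 was the brightest. R08-00516F_C was at the cap on both callus arrays, like R08-00515F_C, and both were saturated there, the only members that were. It differed in the other tissues, with 10.84 and 9.88 in NB shoot, 10.06 and 10.65 in NB root and 10.64 in NB panicle, where R08-00515F_C was dark. On chromosome 9, R09-00299F_C gave 13.10 and 13.83 in callus, against 6.30 and 7.28 in NB shoot, 6.04 and 6.92 in NB root and 6.04 in NB panicle, at least 42.4-fold over NB shoot. Its difference of 6.68 was 3.78 under normexp, loess and Aquantile, which corresponds to a smaller fold. The E5 probe of this locus on S1, E5_07516, gave 14.44 and 15.45 in callus, against 10.36 and 10.93 in NB shoot, 9.66 and 9.32 in NB root and 9.49 and 9.57 in NB panicle. All 3 probes of these loci were highest in callus.

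The pair on chromosome 10 was less even. R10-00261R_C gave 14.78 and 15.93 in callus, against 9.13 and 9.07 in NB shoot, 9.86 and 9.19 in NB root and 9.50 in NB panicle. E5_12917 of R10-00262R gave 11.56 and 11.10 in callus, against 6.51 and 7.92 in NB shoot, 6.78 and 7.11 in NB root and 5.98 in NB panicle, and it was the only member brighter in replicate 1 of callus than in replicate 2. The other 6 probes of R10-00262R differed by -1.43 to 3.47. A near pair was R08-00081R and R08-00083R, 2 numbers apart. R08-00081R_C gave 14.00 and 14.97 in callus against at most 8.71 elsewhere in NB, and R08-00083R_C gave 14.47 and 15.49 against at most 9.34.

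Neighbouring loci that were not members were tested with the same fit. Of 146 such loci, 12 (8.22%) had a probe called higher in callus than in each other NB tissue, against 3.68% of all loci. By probes, 8 of 100 were called on S1 (8%, against 4.89% of common and E5 probes) and 8 of 113 on S2 (7.08%, against 1.2%). In all, 16 of 213 neighbouring probes were called (7.51%, against 2.99%), 5 of them at 1 locus, R02-00628F, next to R02-00629F. The count was 5 without NB callus replicate 2 (2.33%, against 0.883% of all probes in the same fit), 5 without NB root replicate 1 (2.35%, against 1.19%), 8 without NB root replicate 2 (3.76%, against 1.29%) and 10 without NB shoot replicate 2 (4.67%, against 1.56%). It was 28 with the replicate number as a block (13.1%, against 4.87%) and 2 with only the groups compared (0.939%, against 0.445%). The shares beside these alternatives are of all probe classes, while the 2.99% is of common and E5 probes only. The excess in an alternative is therefore not comparable with the main one. The median difference of all neighbouring probes from the nearest tissue was -0.46, against -0.50 over all probes tested, so that most neighbours had no excess in callus.

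A few neighbours, picked after their values were seen, came close to the rule. E5_11498 of R02-00628F gave 15.48 and 16.61 in callus and 11.66 and 12.70 in NB root, against 6.47 and 7.36 in NB shoot and 5.76 in NB panicle. Callus was higher than NB root by 3.87 (SE 0.65, limma's adjusted p 0.0121). The locus had high root signal that its member neighbour lacked, since R02-00629F_C gave 8.72 and 7.61 in NB root. R11-00305R_C gave 15.48 and 16.24 in callus and 12.48 and 12.59 in NB panicle, against 7.83 and 8.56 in NB shoot and 7.70 and 7.76 in NB root. Callus was higher than NB panicle by 3.33 (SE 0.36, limma's adjusted p 0.000173). Its neighbour R11-00306R has NB panicle as its nearest tissue too.

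IR64 shoot did not enter the rule and served as a further tissue. The members' median level there was 8.85 (6.56 to 13.76), and 45 members were not well above background on either IR64 array while 62 were on both. Callus exceeded IR64 shoot by 5.80 at the median, and by 4 or more for 120 of 126 members. The rule chose high callus and low NB shoot, so this excess over a second kind of shoot is largely set by it. It is a description and was not set against all probes. The rule required NB shoot to be low, which favours IR64 above NB shoot among the members, so the comparison of the shoots is a description. In the fit IR64 shoot was called higher than NB shoot for 1 member and lower for 0 of 126, against 0.381% and 1.35% of all probes tested. With the replicate number as a block it was higher for 6 (4.76%, against 1.16% of all probes). Nothing is read from these counts. The levels in both shoots lay within 1 unit of each other for 117 members, with a median difference of 0.19, against 0.03 over all probes tested.

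The member called was R06-00723R_C on S1, with 9.77 and 10.58 in IR64 shoot, against 7.94 and 6.99 in NB shoot. The difference was 2.71 over all 4 arrays, 1.83 between the replicate 1 arrays and 3.60 between the replicate 2 arrays, which shared a scan batch. Both IR64 arrays lay above both NB shoot arrays, and callus, at 12.35 and 13.62, lay above these. The call was lost when any 1 of the 4 shoot arrays was left out, with differences of 2.24 to 3.19, with only the groups compared, and under normexp, loess and Aquantile, with 1.23. The labels give different extraction reagents for the shoots, which the methods do not, and the probes were designed on Nipponbare sequence. Variety, reagent and probe match cannot be told apart here.

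A pair of other members had larger differences and were not called. R03-00170F_C gave 13.21 and 14.31 in IR64 shoot, against 10.80 and 10.94 in NB shoot. IR64 shoot was higher by 2.89. R01-00752F_C gave 9.64 and 10.84 in IR64 shoot, against 6.96 and 7.62 in NB shoot. Here IR64 shoot was higher by 2.95. Both were measured on S2, where the shoots of the varieties gave fewer calls (0.0526% of probes higher in IR64, against 0.703% on S1). R03-00170F_C had the smallest distance of all members between callus and IR64 shoot, 1.22, as callus gave 14.19 and 15.77. At R05-00715F the probes numbered 383 to 458 had IR64 shoot above NB shoot by up to 1.66, and none of them was called.

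**Figure D5:**
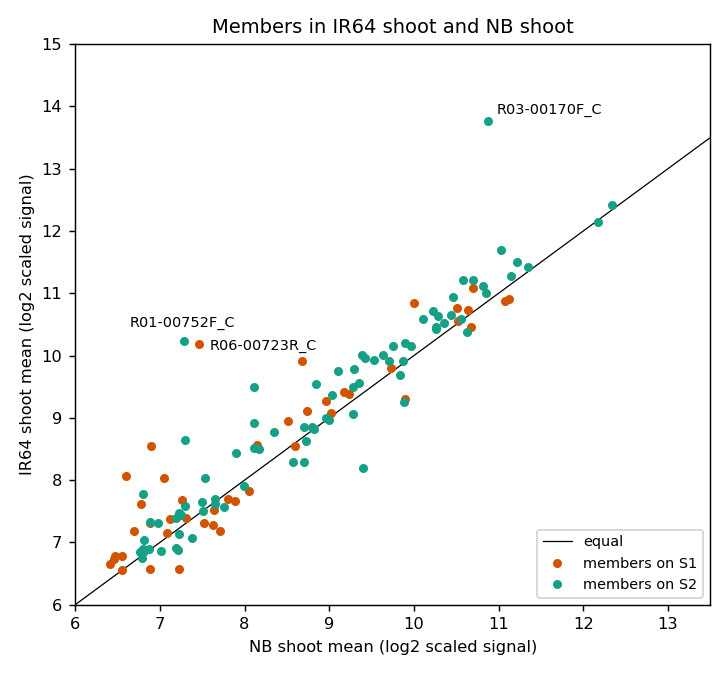
Mean level of the 126 members in IR64 shoot against NB shoot, as log2 scaled signal, with a line where both are equal. R03-00170F_C, R01-00752F_C and R06-00723R_C lie more than 2 units above the line, and 117 members lie within 1 unit of it.

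The callus arrays themselves differed. On S1 replicate 2 was higher than replicate 1 for 40 of 44 members, with the other 4 equal at the cap, by 0.85 at the median. On S2 it was higher for 68 of 82, with 13 equal at the cap, by 1.05 at the median. Other cDNA probes at least as bright in callus as the median member shifted the same way, by 0.81 on S1 and 0.99 on S2, with 89.2% of them higher in replicate 2 on each design. The part of this shift in the members' differences was not tested beyond leaving out each array, which gave 98 members without NB callus replicate 2 and 186 without NB callus replicate 1. The rule averaged these same arrays, so the values within a scan batch are largely set by it and are given as a description. Within the scan batch of the replicate 2 arrays, 43 of 44 members on S1 and 80 of 82 on S2 had callus 4 or more above each other NB tissue measured there, with a lowest difference of 3.97 on S1 and 3.15 on S2. That batch holds no NB panicle array of S2. Between replicate 1 arrays, 38 of 44 and 64 of 82 members reached 4, with a lowest value of 3.35.

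Probes with END3TU in their gene names met the values of the rule about as often as common probes, and other classes less often. The shares were 27 of 8476 END3TU probes (0.319%), 12 of 14331 of the class END (0.0837%) and 3 of 4084 specific probes (0.0735%). They were 2 of 21761 of the class CDS (0.00919%) and 0 of 2056 of the class AK, against 0.338% of common and 0.44% of E5 probes. The files do not explain these class names.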

How the data were processed

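Per the file headers, the authors processed each scan with Feature Extraction 8.1.1.1, while the labels name version 7.5. The deposited signal intensity is background-subtracted, dye-normalized within its array and not normalized between arrays. Deposited flags (other values) mark spots well above background, saturated or outlying. The deposited series-wide tables hold log10 ratios of the dyes and were not used. Here each channel was scaled to a median of 1000 over non-control probes and capped at 100000 as in the study's methods, and the log2 values of both channels were averaged. Outlier spots were left out of the fits. Fits used limma 3.58.1 in R 4.3.3 (two-sided) with all 5 groups of a design, on probes well above background on every array of at least 1 group. Benjamini-Hochberg adjustment ran over all probes of a design for each pair of groups, with calls at 0.05. The fit was tested on simulated data. Members, lists and tests were chosen with earlier results of these data known. The planned gene lists and tissue markers were not run, as 0 of 186499 identifiers matched the gene table. Probes named are the 12 leading loci, 3 on each side of the threshold, members with further probes, adjacent members and members called in IR64 shoot, plus others picked after their values were seen. Alternatives were other scalings (75th percentile, quantile, normexp with loess and Aquantile), no cap, thresholds of 3 and 5, flags, blocks for replicate and scan date, only the groups compared, no detection filter and leaving out each array. Python 3.11.15, numpy 2.4.6, pandas 2.3.3 and matplotlib 3.10.9 were also used. The number of arrays limits the precision.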

Additional observations from a re-analysis of the deposited data

How the results depend on the processing

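The count of 126 members was 77 under normexp, loess and Aquantile, of which 72 were among the 126, 258 at a difference of at least 3 and 75 at a difference of at least 5. With each array left out in turn it was 98 to 186, and the other settings gave 84 to 130. Leaving out outlier spots, an alternative chosen after seeing the data, kept 126. Fitting only the groups compared gave 26 calls in place of 66 for probes on the other design and 2 in place of 16 for neighbouring probes, with fewer arrays behind each fit and 0.445% of all probes called. Neighbouring probes gave 28 calls with the replicate block (4.87% of all probes called), 27 with scan date as a block (4.24%) and 5 to 19 with an array left out. Members called higher in IR64 shoot were 6 with the replicate block (1.16% of all probes called), 4 with scan date as a block (0.632%), 4 with scaling to the 75th percentile (0.575%), 5 with quantile normalization (0.611%), 0 with only the groups compared (0.00685%) and 0 with any 1 shoot array left out, in place of 1. Probes on the other design gave 72 calls with the replicate block and 60 to 67 with an array left out, and the specific probe and the count lower in IR64 shoot stayed at 0 calls throughout. Same-numbered arrays deviated together (correlations 0.114 to 0.831), but with 2 numbers a group they were treated as sharing only a number. Where the array left out was the only NB panicle array of S2, it was kept there. Array number and background limit these counts, and dim members differ from a floor, not a measured level.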
